A study of Drosophila melanogaster with 2 samples.

Results

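The genes for the proteins of the small (40S) subunit of the cytoplasmic ribosome were followed across the binding map of a Sisterless A (sisA) fusion protein in Drosophila melanogaster embryos. The members were the protein-coding genes whose symbol is RpS followed by a number and any letters, plus stubarista (sta), which gave 38 of the 13945 protein-coding genes on the chromosome arms. Chromatin immunoprecipitation and sequencing (ChIP-seq) had been run with an anti-GFP antibody on sonicated chromatin, in fragments of 200 to 800 bp, from whole embryos aged 0 to 18 h of a transgenic sisA-eGFP strain. All samples belonged to that 1 group of 2 biological replicates, the tag is an insertion targeting sisA per the labels, and the sex of the embryos was not collected. The promoter that drives the fusion is not named in the labels, and separate parent cages are not stated either, so the spread between replicates may be technical. The antibody field of the labels names sisA, while their description gives anti-GFP, and sisA was read as the tagged target. No untagged embryos or control libraries were used here, so background was not measured in the same way. A gene was called occupied when the summit of a peak in the conservative list, the authors' list of peaks reproducible at an irreproducible discovery rate (IDR) of 0.01, lay within 1000 bp of any of its annotated transcription start sites (TSSs).

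Small subunit proteins fold onto 18S ribosomal RNA to form a head, a body and a platform, and the finished subunit decodes messenger RNA. In flies, losing a single copy of many of these genes slows growth and thins the bristles, the Minute phenotype, and their promoters commonly start transcription at a pyrimidine-rich TCT initiator in place of the usual initiator. SisA, made by an X-linked gene, is a protein of the basic leucine zipper (bZIP) kind that helps switch on the sex determination gene Sxl in female embryos. A whole embryo is a mixture of cells and ages, so binding in few nuclei and weak binding in many cannot be told apart in these peaks.

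The strongest peaks lay at RpS27, RpS20, RpS21, RpS28b, RpS4 and RpS29. The reference sequence under or beside each summit is given because these promoters carry the highest signals of the family. The 60 bases are from the Release 6 (dm6) assembly, 5′ to 3′ on the strand of the gene, centred on the summit or moved upstream to leave out transcribed bases. Capitals mark the palindromes CAGCTG and ATCGAT, which were chosen after the sequences had been seen.
RpS27, chr3R:25247515-25247574, minus strand, from 60 to 1 bp upstream of the nearest TSS: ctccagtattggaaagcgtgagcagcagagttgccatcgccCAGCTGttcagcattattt
RpS20, chr3R:20821958-20822017, plus strand, from 223 to 164 bp upstream of the nearest TSS: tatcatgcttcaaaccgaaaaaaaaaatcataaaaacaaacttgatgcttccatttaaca
RpS21, chr2L:2856010-2856069, plus strand, from 60 to 1 bp upstream of the nearest TSS: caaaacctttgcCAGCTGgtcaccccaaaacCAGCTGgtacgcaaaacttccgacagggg
RpS28b, chrX:9554558-9554617, plus strand, from 65 to 6 bp upstream of the nearest TSS: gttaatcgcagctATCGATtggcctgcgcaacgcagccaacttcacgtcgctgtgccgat
RpS4, chr3L:13041642-13041701, plus strand, from 114 to 55 bp upstream of the nearest TSS: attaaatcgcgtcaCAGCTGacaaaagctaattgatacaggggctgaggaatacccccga
RpS29, chr3R:9777982-9778041, plus strand, from 60 to 1 bp upstream of the nearest TSS: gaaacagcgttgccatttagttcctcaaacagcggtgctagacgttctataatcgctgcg

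Peak height is the authors' signal value, which has no stated unit and is used here to rank peaks within a list. RpS27, a body and platform protein with a zinc-binding fold, had a signal of 533, rank 306 among the 5133 peaks on the arms, with a peak at chr3R:25247411-25247663 and its summit 29 bp upstream of the TSS. Taken alone, replicate 1 gave 277 at that site and replicate 2 gave 255. RpS20, a head protein, had a signal of 424 (rank 463; 221 in replicate 1 and 196 in replicate 2) at chr3R:20821860-20822119. Both peaks were therefore high in both replicates, but the summit at RpS20 lay 194 bp upstream of that gene and only 139 bp from the divergent gene CG17271. RpS21, of the body and platform group, had its summit 11 bp inside the transcript with a signal of 368 (192 and 175 in replicates 1 and 2), at chr2L:2855966-2856163. RpS28b, a head protein at the exit of the messenger RNA channel, had a signal of 318 (174 and 142) at chrX:9554486-9554665, 36 bp upstream. A further summit of RpS28b, with a signal of 242, lay 750 bp upstream at chrX:9553787-9553910. RpS28b and RpS12 were the only members with more than 1 summit in the conservative list. RpS4, a body protein, had a signal of 278 (139 and 143), 85 bp upstream at chr3L:13041589-13041752. RpS29, a zinc-binding head protein, had a signal of 202 (113 and 97.1), 9 bp inside the transcript at chr3R:9777985-9778070. These 6 peaks were 86 to 260 bp wide, narrower than the 340 bp of most peaks, and all 6 were in the thresholded list of each replicate.

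**Figure D1:**
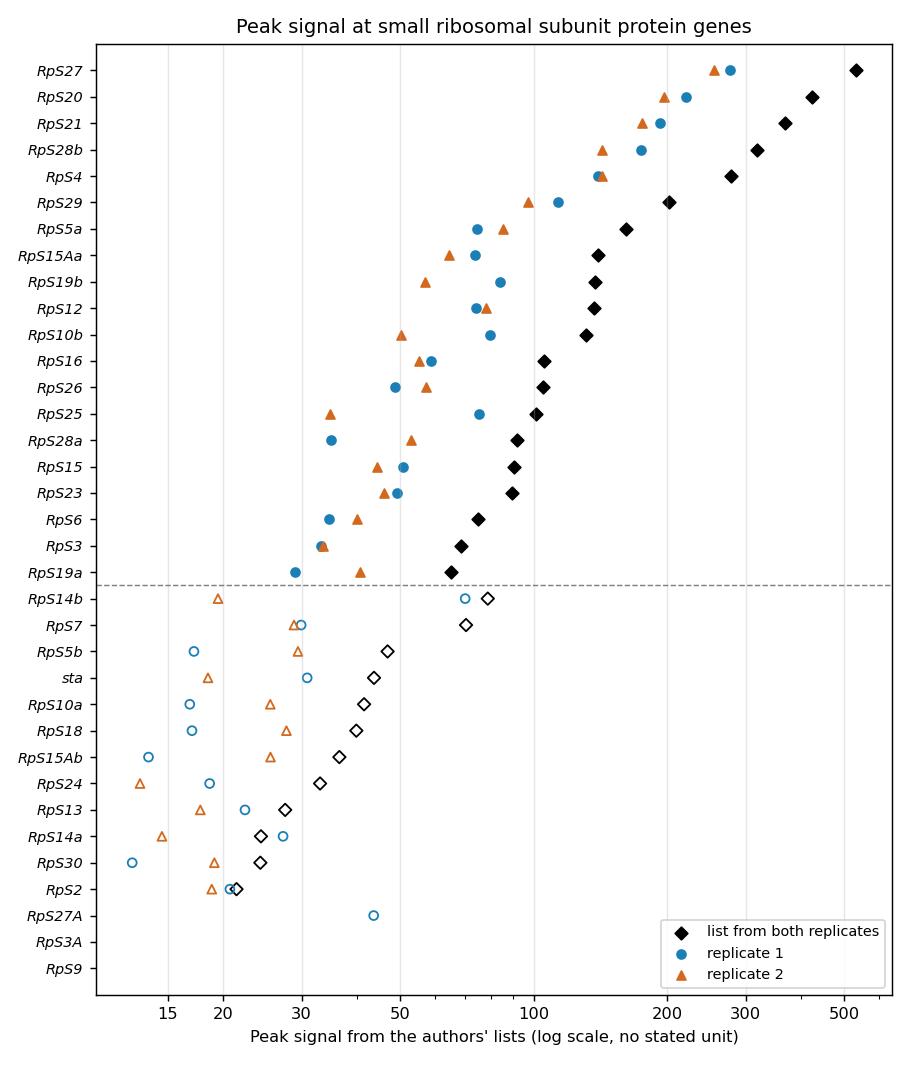
Peak signal (log scale, no stated unit) in a row for each of 35 genes: the list made from both replicates (black diamonds), replicate 1 (blue circles) and replicate 2 (orange triangles). Filled symbols above the dashed line are the 20 occupied genes and open symbols below it the strongest ranked summit within 1000 bp of 15 others, where RpS27A has a symbol for replicate 1 only and RpS3A and RpS9 have none because no list held a summit there. RpS27 is highest at 533.

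Across the family, 20 of the 38 genes were occupied (52.6%), where 21.1% of all protein-coding genes were (2940 of 13945). In the longer list from both replicates, 22 members had a summit (57.9%), against a background of 22.3%. In replicate 1 alone 17 members had one (44.7%; background 20.6%), in replicate 2 alone 14 (36.8%; background 16.1%), and in both 12 (31.6%; background 15.1%). The member share was above the background share in each of these lists. The lists were made from the same 2 libraries and are not independent of each other. The excess is described and not tested, because the family was chosen with results of these data known.

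The 12 genes present in the thresholded lists of both replicates were RpS12, RpS15, RpS15Aa, RpS16, RpS19b, RpS20, RpS21, RpS27, RpS28b, RpS29, RpS4 and RpS5a. RpS10b and RpS25 passed in replicate 1 only, and RpS26 and RpS28a in replicate 2 only. RpS23, RpS6, RpS3 and RpS19a passed in neither replicate alone, and RpS19a was absent from the longer list as well, so that its call stands in the conservative list only. All 20 occupied members had a summit within 100 bp in the full ranked list of each replicate, before thresholding, with a median offset of 12.5 bp and a largest offset of 76 bp. Their signals ran from 29.0 to 277 in replicate 1 (median 74.3) and from 33.5 to 255 in replicate 2 (median 57.0), with a Spearman rank correlation of 0.814 across the 20 genes, which share the same libraries. The genes were chosen through a list of peaks reproducible between these replicates. The matched summits and the correlation therefore follow in part from that choice and are no separate support for the calls. In the plot of peak signal by gene RpS27 is highest in each replicate, and the order of the genes loosens in the middle.

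**Figure D2:**
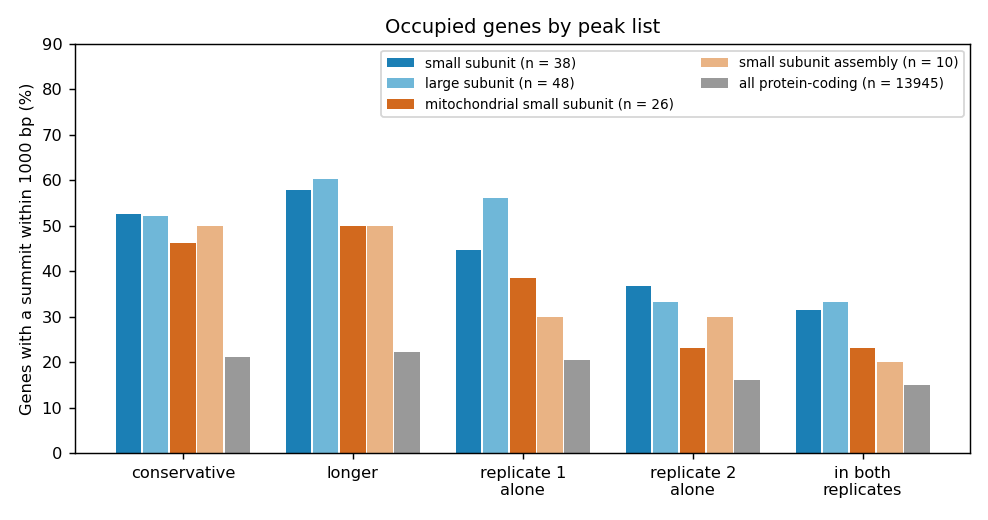
Percent of genes with a summit within 1000 bp of a TSS (vertical axis) in each thresholded list, for the 38 small subunit genes, 48 large subunit genes, 26 mitochondrial small subunit genes, 10 small subunit assembly genes and all 13945 protein-coding genes. The bar for small subunit genes falls from 57.9% in the longer list to 31.6% in both replicates and stays above the grey bar of all genes.

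The head of the subunit, which swivels as messenger and transfer RNA move, held 13 of the 20 occupied genes. Of 18 head genes 13 were occupied (72.2%), and of 20 body and platform genes 7 were (35%), a difference that was not tested because the grouping was made with results known. The gap narrowed to 12 and 10 genes in the longer list, and to 11 and 6 in replicate 1 and 9 and 5 in replicate 2. It was 10 and 7 at 500 bp to a TSS, and 9 and 7 where no other protein-coding TSS was nearer. Every member lost at those last settings was a head gene, so part of the gap lies in summits far from the member or nearer to another gene. Median signals of the occupied genes were 131 for the head and 140 for the body and platform.

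Among the remaining head genes, RpS5a, which lies near the exit of the messenger RNA channel, had the highest signal, 162 (rank 1957; 74.6 in replicate 1 and 85.3 in replicate 2). RpS12, a protein of the beak that is needed in flies for the elimination of Minute cells by their neighbours, had a signal of 137 (74.0 and 78.0) at chr3L:13023130-13023469, 52 bp upstream, and a further summit of signal 113 lay 579 bp upstream. RpS16, whose tail reaches the decoding centre, had a signal of 106 (58.7 and 55.1) at chr2R:22605850-22606189. That summit lay in an intron of RpS16, 107 bp upstream of its downstream TSS. RpS25, a head protein used in viral internal initiation, had a signal of 101 (75.3 and 34.7), 37 bp upstream at chr3R:11216154-11216493, and 211 bp from CG4820. In the ranked list of replicate 2 that peak had an IDR score of 44, where 830 is the score of an IDR of 0.01. The score was 1000 in replicate 1 and in the conservative list. RpS15, a head protein facing the large subunit, had a signal of 90.5 (50.9 and 44.3) at chr2R:16571632-16571971. Its summit lay 572 bp upstream and nearer to CG4927, at 280 bp. RpS3, which lines the entry of the messenger RNA channel, had a signal of 68.7 (33.2 and 33.5) at chr3R:23357800-23358139. That summit fell 842 bp upstream of RpS3, inside the coding sequence of Sec13, a gene for a vesicle coat protein. Thus RpS15 and RpS3 count as occupied only through the wide distance allowed, and at 500 bp neither was.

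Among the remaining body and platform genes, RpS26, a platform protein at the messenger RNA exit, had a signal of 105 (48.6 and 57.2), 54 bp upstream at chr2L:18443161-18443500. RpS23, which sits beside the decoding centre, had a signal of 89.3 (49.3 and 46.0), 9 bp inside the transcript at chr2R:14216399-14216738. RpS6, the body protein phosphorylated by S6 kinase, had a signal of 75.0 (34.5 and 40.0), 20 bp upstream at chrX:7901181-7901520. The RpS6 peak is also the peak of the divergent gene bys, whose product bystin acts in 40S assembly, with its start 529 bp away. All of these 3 genes ranked in the lower part of the list, from 3187 for RpS26 to 4297 for RpS6.

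In 6 pairs of genes that differ only in a final letter, occupancy could be set beside similarity of sequence. RpS19a and RpS19b, encoding a head protein that matures 18S ribosomal RNA, were both occupied. RpS19b had a signal of 137 (84.1 and 56.8) at chr3R:23934400-23934499, but 884 bp upstream, in an intron of CG5854 and nearer to the start of that gene (502 bp). RpS19a had a signal of 65.0 (29.0 and 40.6) at chrX:16637473-16637812, 251 bp upstream and 229 bp from the neighbouring gene Rok. So neither RpS19 summit was nearest to an RpS19 gene. RpS28a and RpS28b were also both occupied, RpS28a with a signal of 91.6 (34.9 and 52.9) at chr3R:30022571-30022910, 93 bp upstream and 101 bp from Axn, which encodes Axin, a scaffold of Wnt signalling. The signal at RpS28b was 318, and RpS28a passed the threshold in replicate 2 alone. The adjacent X-linked genes RpS14a and RpS14b, which encode the same platform protein, were both not occupied.

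In the other 3 pairs a single gene was occupied: RpS5a and not RpS5b, RpS10b and not RpS10a, RpS15Aa and not RpS15Ab. The occupied gene of each is X-linked and the other autosomal. The RpS19 and RpS28 pairs are also split between X and 3R, and there both genes were occupied, while RpS14a and RpS14b are both X-linked and neither was. The peak of RpS5a was at chrX:17148174-17148513, 80 bp upstream, while the strongest ranked summit near RpS5b had a signal of 46.9 and lay 334 bp inside the transcript (17.2 in replicate 1 and 29.4 in replicate 2). RpS10b, a head protein at the messenger RNA entry, had a signal of 131 (79.8 and 50.2) at chrX:19597839-19598178, 22 bp upstream. RpS10a had 41.5 at 250 bp upstream. Its strongest summit was 16.8 at 233 bp upstream in replicate 1, and 25.5 at another place, 348 bp inside the transcript, in replicate 2. RpS15Aa, a body protein, had a signal of 140 (73.8 and 64.4) at chrX:13337531-13337870, 4 bp inside the transcript. RpS15Ab had 36.5 at 975 bp upstream. In the single replicates its strongest summits lay elsewhere, nearer to the TSS: 13.6 at 126 bp upstream in replicate 1 and 25.5 at 182 bp upstream in replicate 2. The pairs were divided by the call itself, so these values describe it and do not test a difference between paralogs. Coding sequences were 74.6% identical for RpS10a and RpS10b and 98.2% for RpS15Aa and RpS15Ab, where the longest identical run over the genes and 200 bp to each side was 132 bp. Upstream of the genes the similarity was gone: in the 300 bp before the TSS none of these 3 pairs shared a run longer than 8 bp. How reads that match both copies of a pair were placed is not given in the sources used. The 60 bases are given to show these promoters as they are and not for alignment, since their distances from the TSS differ; they are centred on the summit for occupied genes, moved to end before the TSS where needed, and end just before the TSS for the others. Capitals mark ATCGAT, or, in RpS15Aa, the longer word TATCGATA that contains it. The bases of RpS15Ab, which was not occupied, are not reported here, and it too had TATCGATA within 100 bp of its TSS. The capitals therefore do not separate the occupied gene of a pair from the other.
RpS5a, chrX:17148314-17148373, minus strand, from 109 to 50 bp upstream of the nearest TSS: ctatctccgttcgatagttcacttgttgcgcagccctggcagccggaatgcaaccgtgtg
RpS5b, chr3R:14901564-14901623, minus strand, from 60 to 1 bp upstream of the nearest TSS: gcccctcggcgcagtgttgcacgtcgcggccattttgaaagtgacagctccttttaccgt
RpS10b, chrX:19597971-19598030, plus strand, from 60 to 1 bp upstream of the nearest TSS: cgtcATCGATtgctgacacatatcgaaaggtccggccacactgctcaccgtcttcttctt
RpS10a, chr3R:27652700-27652759, plus strand, from 60 to 1 bp upstream of the nearest TSS: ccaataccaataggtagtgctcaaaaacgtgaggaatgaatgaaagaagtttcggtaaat
RpS15Aa, chrX:13337706-13337765, minus strand, from 60 to 1 bp upstream of the nearest TSS: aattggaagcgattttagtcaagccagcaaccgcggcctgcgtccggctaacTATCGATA

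The word TATCGATA is the DNA replication-related element (DRE), bound by the factor Dref at many promoters of growth and housekeeping genes. It was found within 100 bp of the summit, on either strand, at 6 of the 20 occupied members (30%): RpS29, RpS15Aa, RpS12, RpS10b, RpS25 and RpS6. The share was 2.36% over all 5133 summits (121), and 5.88% over the 1905 summits within 500 bp of a protein-coding TSS. In 5 of the 6 the middle of the word lay 5 bp (RpS15Aa), 37 bp (RpS12), 73 bp (RpS10b), 56 bp (RpS25) and 52 bp (RpS6) upstream of the TSS, and in RpS29 it lay 19 bp inside the transcript. The 4 upstream words not yet printed are shown because they share this word within the same short stretch of promoter. Capitals mark the DRE, further ATCGAT words, the TATA box word TATAAA on the opposite strand in RpS25, and CAGCTG in RpS6.
RpS12, chr3L:13023286-13023345, plus strand, from 66 to 7 bp upstream of the nearest TSS: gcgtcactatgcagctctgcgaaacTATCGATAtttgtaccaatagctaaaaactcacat
RpS10b, chrX:19597929-19597988, plus strand, from 102 to 43 bp upstream of the nearest TSS: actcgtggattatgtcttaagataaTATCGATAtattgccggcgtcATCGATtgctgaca
RpS25, chr3R:11216313-11216372, minus strand, from 85 to 26 bp upstream of the nearest TSS: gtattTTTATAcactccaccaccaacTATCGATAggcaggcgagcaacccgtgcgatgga
RpS6, chrX:7901353-7901412, minus strand, from 81 to 22 bp upstream of the nearest TSS: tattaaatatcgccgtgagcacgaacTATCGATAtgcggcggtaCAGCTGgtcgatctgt

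The DRE was as common at members without a peak. Within 100 bp of the outermost TSS it was found in 7 of 20 occupied members (35%) and 6 of 18 others (33.3%), against 7.84% of all protein-coding genes (1093 of 13945). The TCT initiator, searched as CTTT on the strand of the gene with its C within 5 bp of an annotated TSS, was found in 13 of 20 occupied members (65%) and 12 of 18 others (66.7%), against 8.07% of all protein-coding genes. Both words therefore marked the family and did not separate its occupied from its other genes. Large subunit genes had the initiator in 31 of 48 cases (64.6%) and mitochondrial small subunit genes in 2 of 26 (7.69%).

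**Figure D3:**
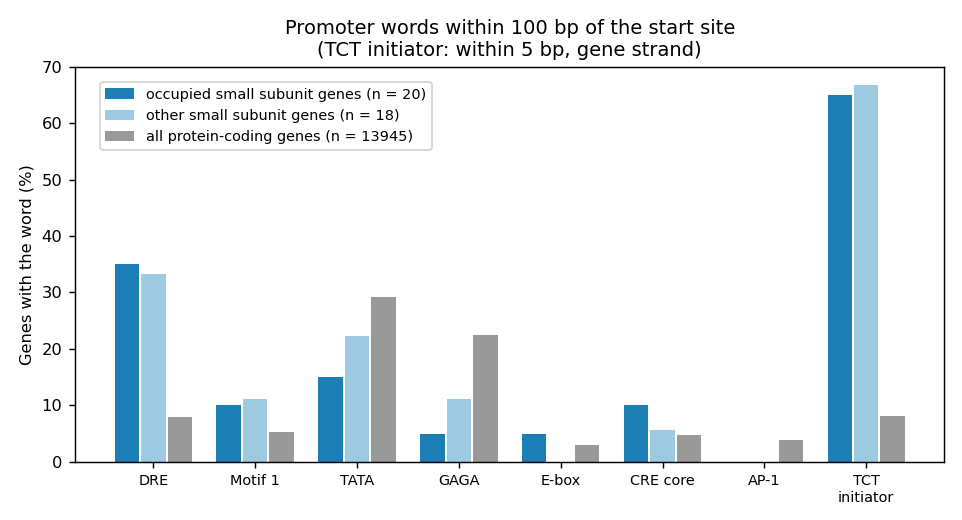
Percent of genes (vertical axis) with each word within 100 bp of a TSS, or for the TCT initiator within 5 bp on the strand of the gene, for the 20 occupied small subunit genes, the other 18 and all 13945 protein-coding genes. DRE is in 35% and 33.3% of the members and the TCT initiator in 65% and 66.7%, both far above the grey bars.

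None of 4 words bound by known bZIP proteins was found at the member summits. The cyclic AMP response element TGACGTCA, its core TGACGT, the AP-1 word TGANTCA and the C/EBP and ATF word TGATGCAA each occurred within 100 bp of 0 of 20 summits, which allows a share of up to 15%. Over all 5133 summits they occurred at 0.273%, 3.21%, 4.79% and 0.507%. Around the TSS, where windows differ from those at summits, the core TGACGT was in 2 of 20 occupied members (10%) and 3 of all 38 (7.89%), beside 4.74% of all protein-coding genes. With 20 summits a difference from shares this low was not detectable, and no match says only that these letters are not in the window. The Zelda word CAGGTAG was also at 0 of 20, and over all summits at 0.877%. The TATA word TATAAA was at 4 of 20 (20%; RpS27, RpS4, RpS16 and RpS25) against 33.1% of all summits, and the GAGA word GAGAG at 2 of 20 (10%; RpS4 and RpS5a) against 21.8%. CACGTG, the form of the E-box (CANNTG) that was searched under that name, was at 1 of 20 (5%; RpS28b) against 1.79% of all summits. Motif 1, GGTCACACT, was at 1 of 20 (5%; RpS23) against 1.13% of all summits and 2.62% of summits within 500 bp of a protein-coding TSS. Around the TSS Motif 1 was in 10% of occupied members and 11.1% of the others, beside 5.29% of all protein-coding genes and 7.14% of the occupied ones. CAGCTG, which also has the letters CANNTG, is a word picked after reading the sequences of the strongest promoters. It was at 5 of 20 (25%; RpS27, RpS21, RpS4, RpS16 and RpS6) against 8.83% of all summits and 11.3% of summits near a TSS. Around the TSSs of all 38 members it was at 13.2%, beside 13.8% of all protein-coding genes. By occupancy it was in 4 of 20 occupied members (20%) and 1 of 18 others (5.56%), beside 17.7% of all occupied protein-coding genes. That difference was not tested. ATCGAT, the inner part of the DRE, was at 8 of 20 (40%) against 8.24% of all summits and 14.6% of summits near a TSS. Its count includes the 6 with the full DRE. Around the TSS it was in 45% of occupied members and 38.9% of the others, beside 18.9% of all protein-coding genes, so it too marked the family.

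The summits of the family lay close to the start of the gene. Their median signed distance was 53 bp upstream (interquartile range 129 to 21.5 bp upstream), and over all 2940 occupied protein-coding genes it was 144 bp upstream (281 to 66). Within 100 bp of a TSS lay 14 of 20 member summits (70%) and 24.4% of those of all occupied genes. Upstream lay 16 of 20 (80%), beside 83.6%. The signal was not high: the median was 134 (interquartile range 91.3 to 221) beside 172 for all occupied protein-coding genes, and 11 of 20 members (55%) were above the median of the list, 128, beside 65.3%. Member peaks were thus nearer to the TSS than those of most occupied genes and somewhat lower. By annotation 13 summits were intergenic, 4 in a 5′ untranslated region (RpS21, RpS29, RpS15Aa and RpS23), 2 in introns (RpS16 and RpS19b) and 1 in coding sequence. Of the 20 peaks 13 were exactly 340 bp wide with the summit in the centre, as were 3699 of 5133 peaks of the list (72.1%), so that these borders do not trace the shape of the signal.

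**Figure D4:**
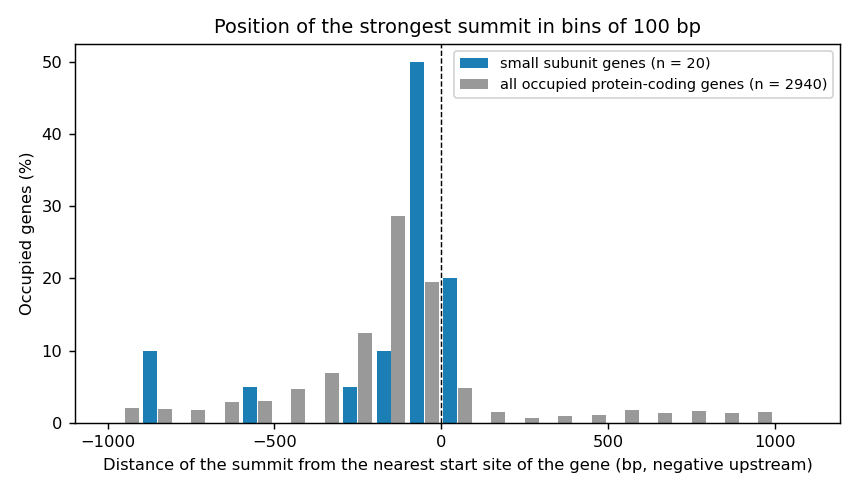
Percent of occupied genes (vertical axis) by distance of the strongest summit from the nearest TSS of the gene, in bins of 100 bp, negative upstream (horizontal axis), for 20 small subunit genes (blue) and 2940 protein-coding genes (grey). The blue bars peak in the bin just upstream of the TSS, where the grey bars peak a bin further out.

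Most of the occupied members had the start of another gene near the summit, as did most occupied genes. At 14 of 20 (70%) a TSS of another protein-coding gene lay within 1000 bp of the summit, beside 60.8% of all occupied genes. In all 14 the nearest such gene was on the opposite strand and divergent, a share that was not counted over all occupied genes. For 4 of them, RpS15, RpS19a, RpS19b and RpS20, that gene was nearer to the summit than the member was (20%, beside 30.3%). Close neighbours of other members were Nup37, a nuclear pore gene, 115 bp from the summit of RpS27, and CG3104, 303 bp from that of RpS21. RpS4, RpS29, RpS10b, RpS26, RpS23 and RpS3 had no other protein-coding TSS within 1000 bp. Counting only members with no nearer gene left 16 of 38 (42.1%), beside 15.2% of all protein-coding genes. A peak between divergent genes does not show which gene it belongs to.

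Of the 18 members without a conservative summit most had a weak summit, as most genes did. In the ranked list of the series, which keeps peaks far below the threshold, 35 of 38 members had a summit within 1000 bp (92.1%), but so did 81.5% of all protein-coding genes. Of the 18, 15 had one (83.3%), beside 76.6% of the 11005 protein-coding genes without a conservative summit. Their median signal was 39.9, beside 34.6 over those genes. Within 100 bp of the TSS lay 4 of these 15 summits (26.7%), beside 12.7%: those of RpS14b, RpS7, sta and RpS2.

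RpS14b and RpS7 were in the longer list and not in the conservative list. RpS14b, a platform protein, had a signal of 78.8, 57 bp upstream, with a score of 56 in the ranked list of the conservative peaks and 1000 in the longer list, and with 70.1 in replicate 1 (score 1000) and only 19.4 at another place, 600 bp inside the transcript, in replicate 2. RpS7, of the body and platform group, had a signal of 70.4 with a score of 767, 21 bp inside the transcript, and 29.9 in replicate 1 (score 424) and 28.8 in replicate 2 (score 91). Neither replicate alone passed the threshold at RpS7, and replicate 1 alone did at RpS14b. RpS27A, which is made as a fusion of ubiquitin to a head protein, had a peak in replicate 1 only (43.6, score 974, 58 bp upstream) and no summit within 1000 bp in the other 3 ranked lists. Just inside the limits of the call were RpS19a (score 865) and RpS3 (927) by score and RpS3 and RpS19b by distance, and just outside lay RpS15Ab, 1745 bp from its nearest conservative summit, and RpS13 at 1954 bp.

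The gene sta, whose product is the ribosomal protein SA of the platform, had a summit 6 bp upstream with a signal of 43.7 and a score of 114. Replicate 1 gave 30.9 with a score of 571, 75 bp inside the transcript, and replicate 2 gave 18.5, 11 bp upstream. Its nearest conservative summit was 12264 bp away. RpS18, at the top of the head, had 39.9, 466 bp inside. Of the body and platform genes, RpS24 had 33.0 at 354 bp inside, RpS13 had 27.6 at 371 bp inside and RpS14a had 24.3 at 888 bp upstream. In replicate 1 the strongest summit at RpS14a had 27.3 at 34 bp upstream, and in replicate 2 it had 14.5 at 659 bp upstream. RpS30, made as a fusion to a ubiquitin-like protein, had 24.2 at 261 bp inside, and RpS2, a protein of the messenger RNA entry, had 21.4 at 9 bp inside. Of these 7 summits, those of sta, RpS30 and RpS2 lay within 300 bp of the TSS. RpS9, which helps to shape the messenger RNA entry, and RpS3A had no summit within 1000 bp in any of the 4 ranked lists, 2 of the series and 1 of each replicate. The nearest conservative summit was 34323 bp from RpS9 and 960064 bp from RpS3A, the single member on chromosome 4, where 1 of 80 protein-coding genes was occupied (1.25%).

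By chromosome, members were occupied in 6 of 9 cases on X (66.7%), 7 of 12 on 3R (58.3%), 2 of 4 on 3L (50%), 3 of 7 on 2R (42.9%), 2 of 5 on 2L (40%) and 0 of 1 on chromosome 4. For all protein-coding genes the shares were 22.3% on X, 21.3% on 3R, 22.5% on 3L, 21.0% on 2R and 19.1% on 2L. The member share exceeded the chromosome's own share on all 5 large arms. With 4 to 12 genes an arm the order among arms is not resolved, and it was not tested. The X-linked members were RpS28b, RpS5a, RpS15Aa, RpS10b, RpS6 and RpS19a among the occupied, and sta, RpS14a and RpS14b among the others.

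Other genes of the ribosome were also occupied above the background share in the conservative list, and no difference from the small subunit was tested. Genes of the large (60S) subunit were occupied in 25 of 48 cases (52.1%), with a median signal of 132, a median distance of 75 bp upstream and 68% of summits within 100 bp of the TSS. In replicate 1 the large subunit had 27 (56.2%) and in replicate 2 it had 16 (33.3%). Genes of the mitochondrial small subunit, which belong to a ribosome of bacterial descent, were occupied in 12 of 26 cases (46.2%), with a median distance of 111.5 bp upstream, but in 10 in replicate 1 (38.5%) and 6 in replicate 2 (23.1%). Among 10 genes that act in assembling the small subunit, 5 were occupied, and 3 in each replicate alone. RIOK1, a kinase of late assembly, had a signal of 134 at 118 bp upstream, and Fib, the fibrillarin methyltransferase, had 127 at 117 bp upstream. The signal was 123 at hoip, a protein of box C/D particles (847 bp inside the transcript), 104 at Nop56 (702 bp upstream) and 75.0 at bys, in the peak shared with RpS6. RIOK2, Tsr1, l(1)G0004, nop5 and wcd had no conservative summit within 1000 bp. The summits of these assembly genes lay more than 100 bp from the TSS in all 5 cases, where 14 of the 20 small subunit summits lay within it. Over all occupied protein-coding genes 24.4% lay within it, so with 5 genes no difference from that share can be read.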

How the data were processed

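Peak lists on dm6, in the narrowPeak layout per the file listings, were deposited. The conservative list (5202 peaks, 5133 on the arms) and the longer list (5643) were derived by the authors from both replicates, and lists of 4751 and 3485 peaks from replicates 1 and 2. Each has a ranked list before thresholding. Not given in the sources used here are the peak caller, the aligner and the placing of reads with several matches. The signal of a peak was deposited by the authors without a stated normalization, so values of separate lists are set side by side but need not share a scale. The score, deposited by the authors, is derived from the IDR, and every thresholded peak had at least 830. Read depth is unknown, so no interval that needs it is given.

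Coordinates were written 1-based. TSSs came from Ensembl release 115 (BDGP 6.54), and all 38 members matched the spans of the RefSeq table within 100 bp. Sequence came from RefSeq's Release 6 genome. Each gene took its strongest summit within 1000 bp, and replicate summits were matched within 100 bp. Words were searched on both strands within 100 bp of a summit or TSS. The counting was tested on simulated summits. Work was done in Python 3.11.15 (pandas 2.3.3, numpy 2.4.6, matplotlib 3.10.9, scipy 1.17.1).

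With a single group no comparison between conditions and no test was made, and shares are set beside those of all protein-coding genes. The members, roles, lists and words were chosen with earlier results of these data known. Some members' single values are not reported here. Full values were given for the 10 strongest members, letter pairs, sta, and members with a nearer gene, by rule. RpS28-like did not meet the symbol rule. Alternatives were the longer list, peaks above the median signal, each replicate alone, distances of 500 and 2000 bp, 1 TSS per gene, no nearer gene, and word windows of 50 and 200 bp.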

Additional observations from a re-analysis of the deposited data

How the results depend on the processing

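Occupied members numbered 20, and 14 to 22 under every alternative but the peaks above the median signal, which left 11. That setting removed RpS15, RpS16, RpS19a, RpS23, RpS25, RpS26, RpS28a, RpS3 and RpS6. The background share was 22.3% in the longer list, 13.8% above the median signal, 17.8% at 500 bp, 26.9% at 2000 bp, 19.2% with 1 TSS per gene, 15.2% with no nearer gene, and 16.1% to 20.6% with a replicate left out, below the member share in each. The median signal of the members was 119 in the longer list, 202 above the median signal, and 75.3 to 81.6 in the lists of single replicates, whose scale may differ. The median signed distance was -44.5 bp in the longer list, at 2000 bp and with 1 TSS per gene, -36 bp above the median signal, -37 bp at 500 bp, -36.5 bp with no nearer gene, and -58 to -56 bp with a replicate left out. Members in both replicates rose from 12 to 35 when ranked lists replaced thresholded ones. Those ranked lists held a summit for 82.5% of all protein-coding genes in replicate 1 and 80.7% in replicate 2, so the rise is not particular to the members. Members with a DRE at the summit numbered 6, and 5, 7 and 7 with windows of 50 bp, 200 bp and the longer list. Over all conservative summits the share with a DRE was 0.916% at 50 bp, 2.36% at 100 bp and 4.36% at 200 bp. The cause of these shifts was not tested. No paired analysis was possible because there was 1 group. With 2 replicates and unknown depth, a missing peak may be a weak peak, and 20 summits cannot resolve words found at a few percent of summits.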

Other observations

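Introns of ribosomal protein genes often carry small nucleolar RNAs (snoRNAs), which guide modification of ribosomal RNA. In the annotation 13 of the 38 small subunit genes held at least 1 snoRNA gene on the same strand, and 7 of these 13 were occupied (53.8%), beside 13 of the 25 without a snoRNA (52%) and 36 of all 84 protein-coding genes that hold a snoRNA (42.9%). The 7 were RpS12, RpS16, RpS20, RpS29, RpS4, RpS5a and RpS6. RpS5a carried the most, 14 snoRNA genes. RpS7, with 7, had no conservative summit, nor did RpS3A, RpS9 and sta.

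RpS28-like, whose symbol falls outside the naming rule, had no summit within 1000 bp in the ranked list, and its nearest conservative summit was 5466 bp away.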
